A study of Mus musculus with 5 samples.

Results

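Genes of the angiopoietin and endothelin systems were examined in murine lung cancer-associated fibroblasts (CAFs) with and without overexpressed miR-200. The set was chosen by symbol as the angiopoietins *Angpt1* and *Angpt2*, the angiopoietin-like genes *Angptl2* and *Angptl4*, the angiopoietin receptor gene *Tek*, the endothelin gene *Edn1*, its receptor genes *Ednra* and *Ednrb*, and the processing enzyme gene *Ece1*. All 9 had a row among the 21835 genes of the deposited table. mRNA of 5 samples was sequenced as stranded libraries: 2 of CAFs with an empty vector (CAF-vec, labelled as a wild-type control) and 3 of CAFs overexpressing a cluster that encodes miR-200a, miR-200b and miR-429 (CAF-200). Both were fibroblasts from lung, grown in serum-containing alpha-MEM and labelled as 1 cell line. The miR-200 construct was delivered by lentivirus, with infected cells selected with G418 per the labels. No label said whether the samples of a group were separate cultures, so the *p* values measure only the spread between these samples, which may be technical.

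Angiopoietin-1 is the activating ligand of the receptor tyrosine kinase TIE2, encoded by *Tek* and known mainly from endothelial cells, and angiopoietin-2 is a context-dependent antagonist or weak agonist of the same receptor. Angiopoietin-like proteins share their architecture but do not signal through TIE2, and ANGPTL4 is best known as an inhibitor of lipoprotein lipase. Endothelin-1 is a vasoconstrictor peptide cut from its precursor by endothelin-converting enzyme 1 and sensed by 2 G-protein-coupled receptors, ETA (*Ednra*) and ETB (*Ednrb*), with ETA the usual receptor of contractile mesenchymal cells.

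The overexpressed miRNAs fall into 2 seed groups, and their mature sequences are shown because the seed sets which 3′-UTR heptamers were searched in the 9 genes. Sequences are from RefSeq (GRCm38.p6), 5′ to 3′, with the seed (bases 2 to 8) in capitals. The 3 lie on the minus strand at chr4:156055685-156055706 (miR-200b-3p), chr4:156053916-156053937 (miR-429-3p) and chr4:156054911-156054932 (miR-200a-3p).
mmu-miR-200b-3p: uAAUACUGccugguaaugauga
mmu-miR-429-3p: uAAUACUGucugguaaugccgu
mmu-miR-200a-3p: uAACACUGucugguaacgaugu
miR-200b and miR-429 share a seed, whose target-side match is CAGTATT, and the miR-200a match is CAGTGTT. The mature miRNAs themselves were not measured by these mRNA libraries.

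The longest annotated 3′-UTRs (GENCODE M21, GRCm38) of 4 of the 9 genes held at least 1 heptamer match, namely *Angpt1*, *Angptl2*, *Edn1* and *Ednrb*, and 5 held none. Among 12060 tested genes with an annotated 3′-UTR, 30.3% held a match to either seed, 15.7% to that of miR-200b and miR-429 and 20.9% to that of miR-200a. *Angpt1* and *Ednrb* were too low to be tested and are not among these genes. A selection of the matches is shown in 3′-UTR context, transcript strand, with the match in capitals, since *Edn1* is the only one of the 4 whose transcript fell past both thresholds described next.
Edn1, miR-200a, plus strand, chr13:42306894-42306900: agagctccccCAGTGTTttggaagtca
Angptl2, miR-200a, plus strand, chr2:33246423-33246429: tggaaatgaaCAGTGTTctctgtccct
Angptl2, miR-200a, plus strand, chr2:33247704-33247710: taaaagccatCAGTGTTacgtgga
Angpt1, miR-200b and miR-429, minus strand, chr15:42426952-42426958: ggtgctctgcCAGTATTagaaagctgc
Ednrb, miR-200b and miR-429, minus strand, chr14:103814813-103814819: caaacattttCAGTATTgataatgtgc
The *Edn1* match lay close to the stop codon, at bases 15 to 21 of a 1111-base 3′-UTR. *Angptl2* held 2 matches in 1431 bases, at bases 137 to 143 and 1418 to 1424. *Angpt1* held the match shown, also close to the stop codon at bases 12 to 18, in 2247 bases. It held 1 more to the same seed and 1 to the miR-200a seed. The 3′-UTRs of *Angpt2* (1785 bases), *Ece1* (2323 bases), *Ednra* (1945 bases), *Angptl4* (1637 bases) and *Tek* (978 bases) held neither heptamer. Of 3′-UTRs within 20% of the same length, a match was present in 24.5% for *Edn1*, 30.6% for *Angptl2*, 45.0% for *Angpt1* and 49.2% for *Ednrb*, the genes with a match. For the genes without a match the share was between 21.2% (*Tek*) and 46.5% (*Ece1*). Searching any annotated 3′-UTR of each gene left 4 of the 9 genes with a match, against 31.7% of those 12060 genes. A heptamer match describes letters in this window and is not a measured site.

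**Figure D1:**
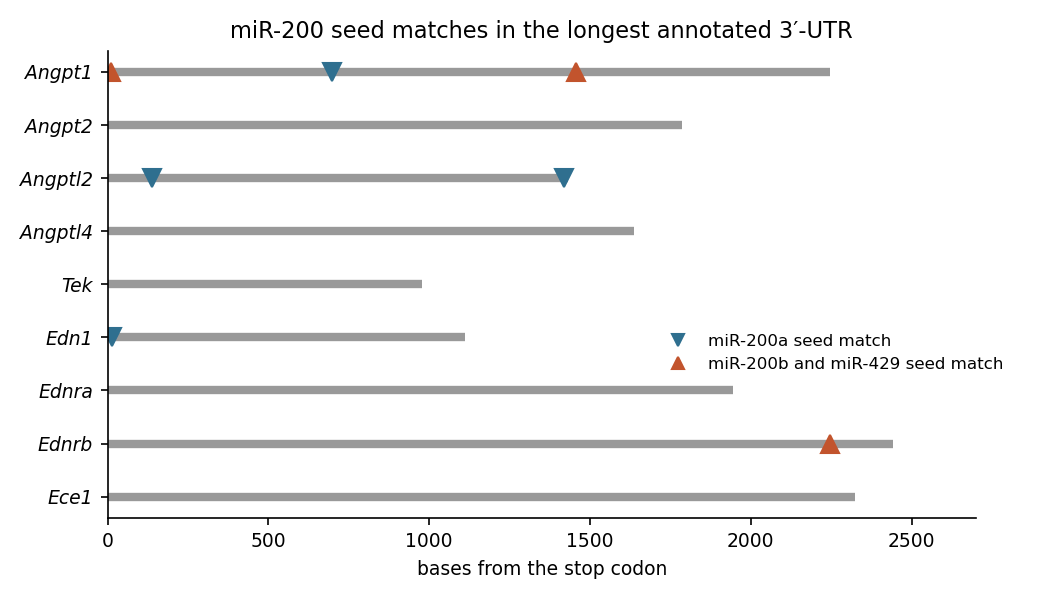
Each row is the longest annotated 3′-UTR of 1 gene, drawn to scale in bases from the stop codon, and triangles mark where heptamer matches to either seed start. *Edn1* has 1 match, beside the stop codon, and *Angpt1* has 3, of which 1 is beside the stop codon. *Angptl2* has 2 and *Angpt2*, *Angptl4*, *Tek*, *Ednra* and *Ece1* have none.

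Values were deposited in CPM, a scale of read counts relative to the size of each library, and the columns summed to between 999956 and 1000111. Differences were tested on log2(CPM + 0.5) with limma over the 12175 genes that reached 0.5 CPM in at least 2 samples, and a gene was called at a Benjamini-Hochberg adjusted *p* under 0.01 with a log2 fold-change beyond 1. On this scale a fold-change understates how far a lowly expressed gene moved. The spread between the 2 CAF-vec samples was wider than among the CAF-200 samples, with a standard deviation of the log2 difference of 0.49 against 0.192 to 0.204. Of 10 fibroblast markers, 9 reached 1 CPM, as did 3 of 7 pericyte, 3 of 7 leukocyte, 2 of 10 endothelial and 0 of 7 epithelial markers. Neither of 2 known miR-200 targets passed an adjusted *p* of 0.01 by limma (*Zeb1* log2 fold-change −0.36, adjusted *p* = 0.0504, and *Zeb2* −0.23, adjusted *p* = 0.374). Every CAF-200 *Zeb1* value (34.06 to 37.83 CPM) lay below both CAF-vec values (43.49 and 50.75 CPM), as for 37.3% of all genes tested. The *Zeb2* groups overlapped. By RT-qPCR the study reports raised miR-200a, miR-200b and miR-429 and lower *Zeb1* mRNA in CAF-200. In these bulk samples, fewer cells expressing a gene and less RNA per cell cannot be told apart.

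Of the 9 genes, 6 passed the filter on low values and were tested. In CAF-200, *Angpt2* and *Edn1* fell and *Ednra* rose past both thresholds. *Ece1*, *Angptl2* and *Angptl4* had higher values in every CAF-200 sample than in either CAF-vec sample without passing the test. *Angpt1*, *Tek* and *Ednrb* stayed below the filter, and *Ednrb* was at 0 in all 5 samples. Over all genes tested, 2.35% were called lower (286 genes), beside *Angpt2* and *Edn1* here. The share called higher was 2.37% (289 genes), against which *Ednra* is not set, since it entered the test only through its CAF-200 values.

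**Figure D2:**
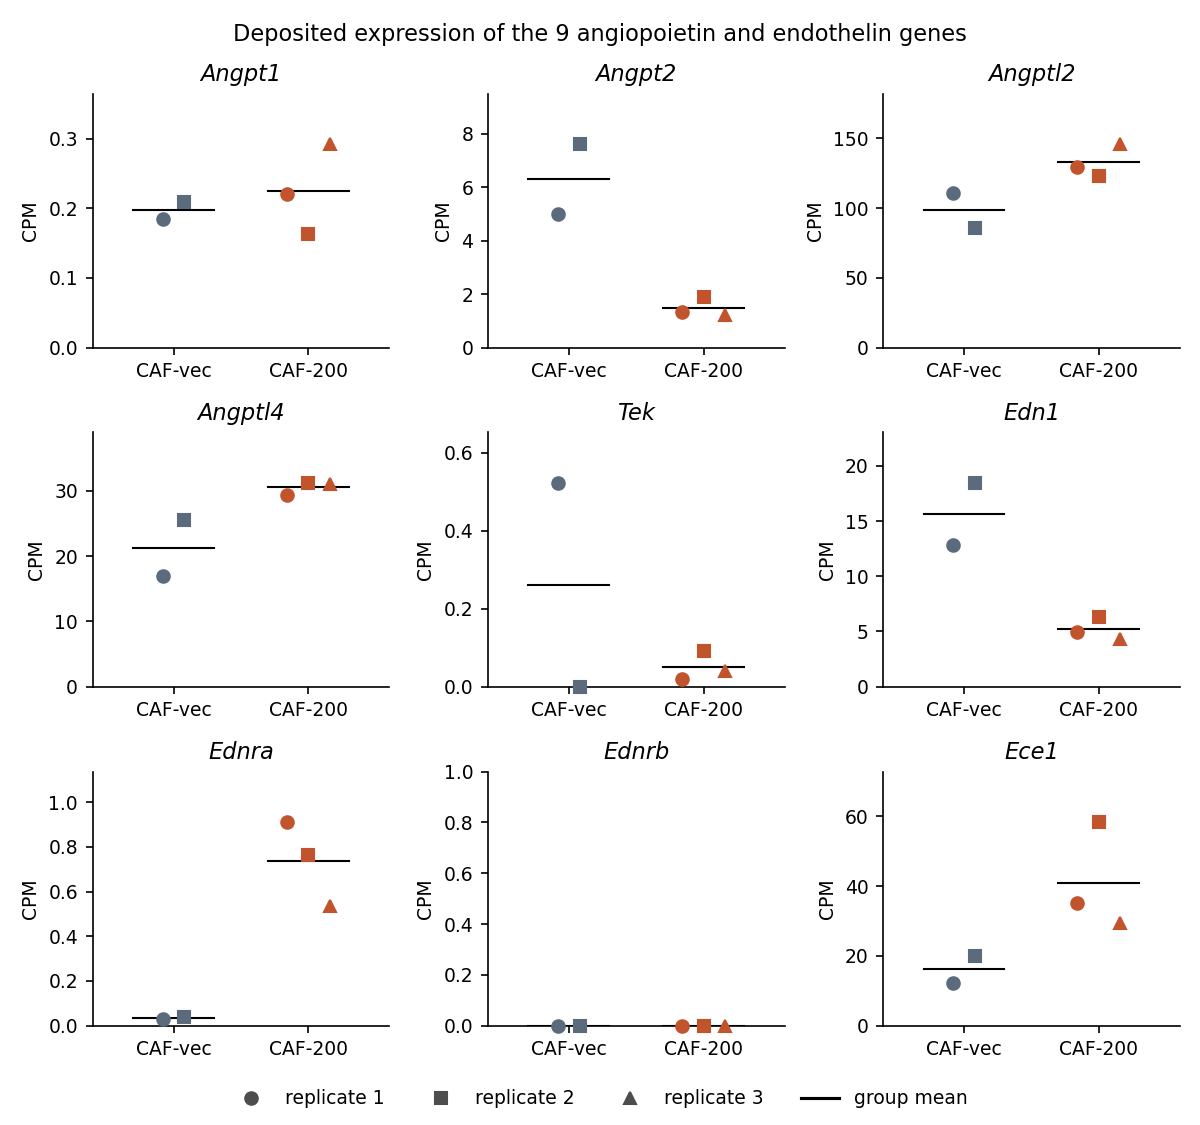
Each panel plots the CPM of 1 gene in each of the 5 samples, with a linear axis from 0 of its own range, symbols for the sample number and a line at the group mean. CAF-200 values lie below both CAF-vec values for *Angpt2* and *Edn1* and above them for *Ednra*, *Ece1*, *Angptl2* and *Angptl4*.

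Among the ligands, *Edn1* (ENSMUSG00000021367, chr13:42301476-42307990, plus strand) measured 12.8 and 18.4 CPM in CAF-vec and 4.94, 6.32 and 4.35 CPM in CAF-200. The groups did not overlap, and the highest CAF-200 sample was less than 50% of the lowest CAF-vec sample. Mean *Edn1* was 15.6 ± 3.98 CPM in CAF-vec (SD, n = 2) against 5.20 ± 1.01 CPM in CAF-200 (SD, n = 3), a ratio of 3.00. By limma the log2 fold-change was −1.49 (SE 0.213, 95% interval −2.02 to −0.96, adjusted *p* = 0.00765), ranked 114 among the falls of the genes tested.

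*Angpt2* (ENSMUSG00000031465, chr8:18690263-18741562, minus strand) measured 4.98 and 7.60 CPM in CAF-vec and 1.34, 1.91 and 1.24 CPM in CAF-200. All 3 CAF-200 samples were below both CAF-vec samples. The means were 6.29 ± 1.85 CPM (SD, n = 2) and 1.495 ± 0.360 CPM (SD, n = 3), which is 4.21 times higher in CAF-vec. By limma the log2 fold-change was −1.75 (SE 0.231, 95% interval −2.33 to −1.18, adjusted *p* = 0.00617), rank 58 among the falls. *Mcph1*, a gene on the opposite strand that overlaps *Angpt2*, measured 9.97 to 13.2 CPM over the 5 samples with overlapping groups (log2 fold-change 0.18, adjusted *p* = 0.318). The strand setting of the counting was not given in the sources used here, so reads of the pair may be shared.

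Both calls were lost without any 1 of the CAF-200 samples and without the filter. Leaving out any 1 CAF-200 sample left the adjusted *p* of *Angpt2* at up to 0.0407 and of *Edn1* at up to 0.044, with 0 genes of the whole table called lower. The log2 fold-changes were then −1.90 to −1.66 for *Angpt2* and −1.63 to −1.38 for *Edn1*. Without the filter on low values the adjusted *p* was 0.0123 for *Angpt2* and 0.015 for *Edn1*, with the same fold-changes as with it.

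The other angiopoietin, *Angpt1* (ENSMUSG00000022309, chr15:42424723-42676977, minus strand), was low in every sample. It measured 0.185 and 0.209 CPM in CAF-vec and 0.221, 0.163 and 0.292 CPM in CAF-200, with overlapping groups, and was not tested. The *Angpt2* to *Angpt1* ratio within a sample was 27.0 and 36.4 in CAF-vec and 6.07, 11.7 and 4.24 in CAF-200. The 2 groups did not overlap in this ratio, whose denominator was below 0.3 CPM in every sample. With 2 against 3 samples the smallest 2-sided exact permutation *p* is 0.2, so the ratios are given as a description. The TIE2 receptor gene *Tek* (ENSMUSG00000006386, chr4:94739289-94874976, plus strand) measured 0.522 and 0 CPM in CAF-vec and 0.0205, 0.0916 and 0.0413 CPM in CAF-200, so that CAF-vec 1 alone reached 0.5 CPM.

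*Angptl2* (ENSMUSG00000004105, chr2:33216069-33247717, plus strand), a secreted inflammatory mediator, was the most abundant of the 9 in CPM, at 110.9 and 86.0 CPM in CAF-vec and 129.8, 123 and 145.7 CPM in CAF-200. The groups did not overlap, but the log2 fold-change of 0.44 (SE 0.142, 95% interval 0.09 to 0.79) had an adjusted *p* of 0.0652 by limma. *Angptl4* (ENSMUSG00000002289, chr17:33773750-33781830, minus strand), the lipase inhibitor, measured 16.9 and 25.6 CPM in CAF-vec and 29.4, 31.1 and 31.0 CPM in CAF-200. The CAF-200 samples were nearly equal and both CAF-vec samples were lower (log2 fold-change 0.54, SE 0.177, 95% interval 0.10 to 0.98, adjusted *p* = 0.0673 by limma). *Angptl2* overlaps *Ralgps1* on the opposite strand, with *Ralgps1* values of 4.05 and 5.04 CPM in CAF-vec against 2.58 to 2.95 CPM in CAF-200. Other opposite-strand genes, for which no row was used here, overlap *Angpt1*, *Edn1*, *Ednra* and *Ece1*.

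CAF-vec 2 had 1.51 times the *Angptl4* level of CAF-vec 1 and CAF-vec 1 the higher *Angptl2* level, and the log2 fold-change of each moved with the CAF-vec sample kept. The adjusted *p* of both genes was below that with all samples whichever CAF-vec sample was left out, and why was not tested. *Angptl4* had an adjusted *p* of 7.56e-05 with a log2 fold-change of 0.83 without CAF-vec 2 and of 0.0316 with 0.25 without CAF-vec 1. *Angptl2* had an adjusted *p* of 0.00157 with 0.62 without CAF-vec 1 and of 0.0473 with 0.26 without CAF-vec 2. Without CAF-vec 2, 50.6% of all genes had an adjusted *p* under 0.01, and without CAF-vec 1, 29.9%. The ratio of *Angptl4* to *Angptl2* overlapped between groups, at 0.153 and 0.298 in CAF-vec and 0.213 to 0.253 in CAF-200.

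In the endothelin system, values of the converting enzyme were higher in CAF-200 while those of its substrate gene fell. *Ece1* (ENSMUSG00000057530, chr4:137862237-137965229, plus strand) measured 12.2 and 20.1 CPM in CAF-vec and 35.1, 58.2 and 29.3 CPM in CAF-200. The groups did not overlap, and CAF-200 2 stood above the other two CAF-200 samples. The means were 16.2 ± 5.56 CPM (SD, n = 2) and 40.9 ± 15.3 CPM (SD, n = 3), 2.53 times higher in CAF-200, with the widest spread within CAF-200 among the 6 tested genes. The log2 fold-change of 1.29 (SE 0.340, 95% interval 0.45 to 2.13) had an adjusted *p* of 0.0371 by limma and was not called. Without CAF-vec 2 it was 1.64 with an adjusted *p* of 0.00228 and called, where 50.6% of all genes had an adjusted *p* under 0.01, and without CAF-200 2 it was 1.01 with an adjusted *p* of 0.0775.

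The ratio of *Edn1* to *Ece1* within a sample was 1.05 and 0.917 in CAF-vec and 0.141, 0.109 and 0.148 in CAF-200 in CPM. Every CAF-200 ratio was below both CAF-vec ratios, which follows from the opposite separations of both genes and is not a further result. The ratios within each group were close to each other, although CAF-vec 2 exceeded CAF-vec 1 by 1.44 times for *Edn1* and 1.64 times for *Ece1*. Per kilobase of annotated exon, which allows the level of 1 gene to be set against another, the ratio was 2.60 and 2.27 in CAF-vec and 0.349, 0.269 and 0.367 in CAF-200. *Edn1* thus lay above *Ece1* per kilobase in both CAF-vec samples and below it in all 3 CAF-200 samples.

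Of the endothelin receptors, *Ednra* (ENSMUSG00000031616, chr8:77663031-77724464, minus strand) measured 0.0279 and 0.0394 CPM in CAF-vec and 0.910, 0.763 and 0.535 CPM in CAF-200. The CAF-vec values were 3.06 and 4.02 times the commonest low value in their columns, and all 3 CAF-200 samples lay above them. The means were 0.0336 ± 0.00815 CPM (SD, n = 2) and 0.736 ± 0.189 CPM (SD, n = 3), and even the higher group stayed below 1 CPM. By limma the log2 fold-change was 1.20 (SE 0.192, 95% interval 0.72 to 1.68, adjusted *p* = 0.00956). This result is limited by the filter, which *Ednra* passed only through the group where it was high. Without the filter the log2 fold-change was the same, with an adjusted *p* of 0.00899 by limma. The size depended on the pseudocount, at 0.74 (adjusted *p* = 0.0128) with 1 CPM added and 2.62 (adjusted *p* = 0.00599) with 0.1 CPM added. Quantile normalization gave 1.02 (adjusted *p* = 0.0153), and leaving out 1 sample in turn gave an adjusted *p* of up to 0.0509. *Ednrb* (ENSMUSG00000022122, chr14:103814625-103844402, minus strand) was listed at 0 in every sample.

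**Figure D3:**
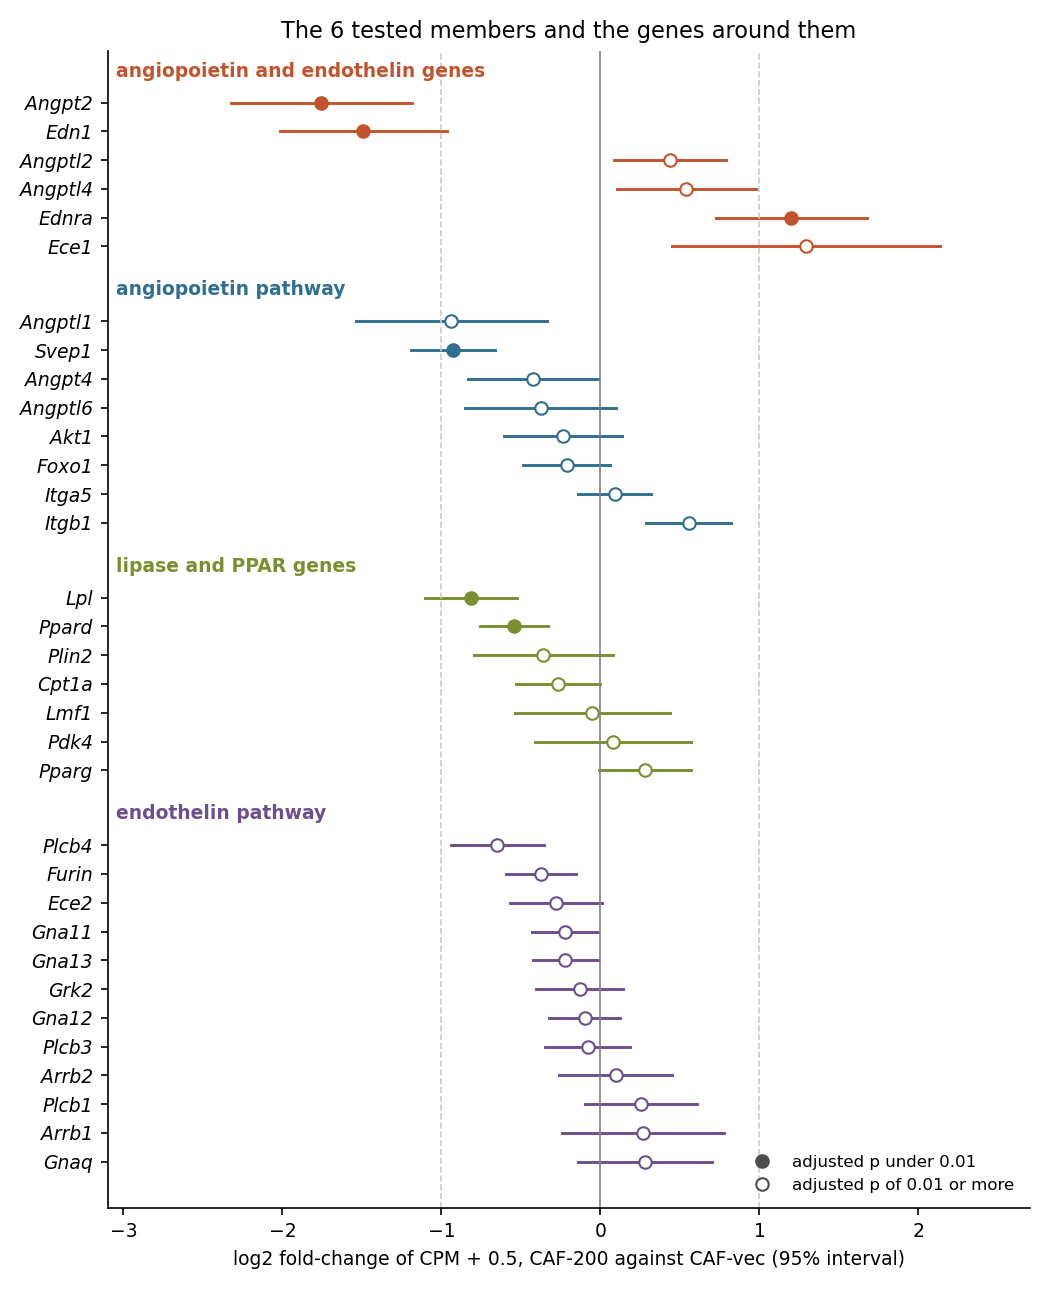
Points are limma log2 fold-changes of CAF-200 against CAF-vec on log2(CPM + 0.5), with 95% intervals, for the 6 tested genes and for the tested genes of the angiopoietin, lipase and PPAR, and endothelin lists. *Angpt2* and *Edn1* lie furthest left, *Ece1* and *Ednra* furthest right, and the genes of the other lists lie between −0.94 and 0.55.

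*Ednra*, which passed the filter only through its CAF-200 values, is left out of the following counts. The other 5 tested genes each had an unadjusted *p* under 0.05 by limma, as had 44.9% of all genes tested. *Edn1* and *Angpt2* had an adjusted *p* under 0.01 and were lower, where the shares over all genes tested were 5.57% lower and 4.45% higher. All CAF-200 samples were lower than either CAF-vec sample for *Edn1* and *Angpt2*, as for 37.3% of all genes, and higher than either for *Ece1*, *Angptl2* and *Angptl4*, as for 24.3%.

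**Figure D4:**
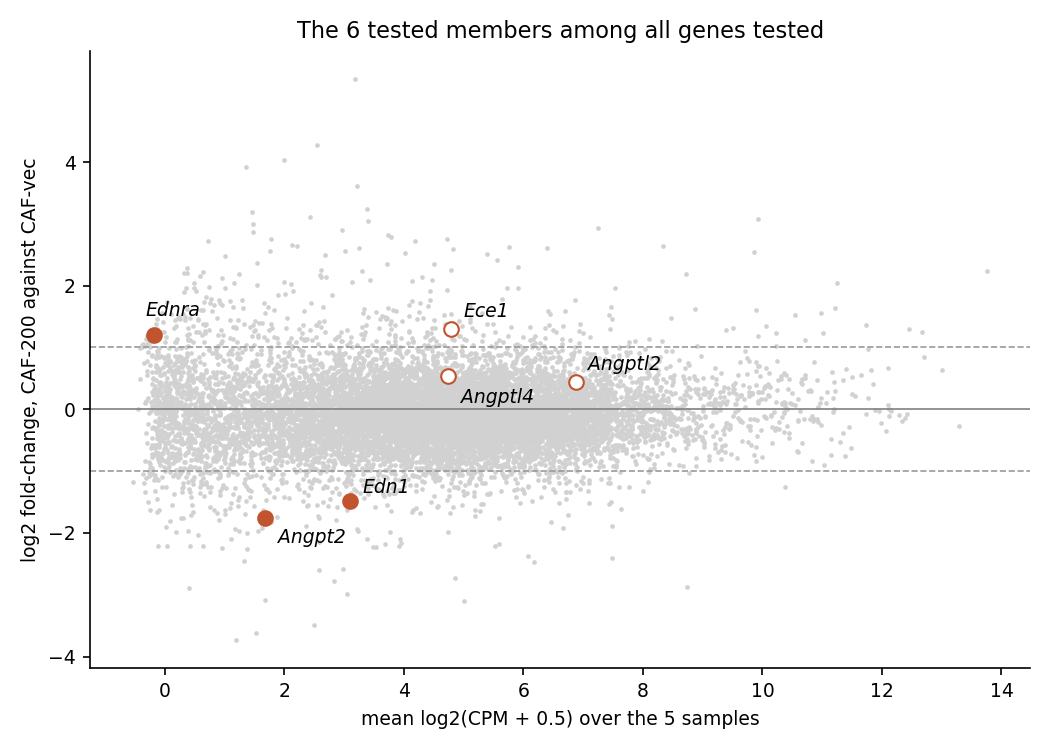
Each grey point is 1 of the 12175 tested genes, by mean level and by log2 fold-change, both on the log2(CPM + 0.5) scale, with the 6 tested angiopoietin and endothelin genes marked. *Ednra* sits at the low end of the level axis, *Angptl2* is the most abundant of the 6, and *Angpt2* and *Edn1* lie at the lower side of the cloud.

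Per kilobase, the order of mean levels in CAF-vec was *Angptl2* (15.7 ± 2.80 CPM per kilobase, SD, n = 2), *Edn1* (7.30 ± 1.86), *Angptl4* (6.01 ± 1.73), *Ece1* (3.05 ± 1.05) and *Angpt2* (1.71 ± 0.502), with *Tek*, *Angpt1*, *Ednra* and *Ednrb* under 0.1. The ranges of the neighbours *Edn1* and *Angptl4* overlapped, and so did those of *Tek* and *Angpt1*. In CAF-200 the order was *Angptl2* (21.1 ± 1.85, SD, n = 3), *Angptl4* (8.62 ± 0.272), *Ece1* (7.71 ± 2.89), *Edn1* (2.43 ± 0.474) and *Angpt2* (0.405 ± 0.0974), followed by *Ednra* (0.134 ± 0.0345), *Angpt1* (0.0433) and *Tek* (0.0109). *Angptl4* and *Ece1* overlapped there. *Edn1* thus lay above *Angptl4* and *Ece1* in the CAF-vec means and below both in the CAF-200 means. *Ednra* lay below *Angpt1* in both CAF-vec samples and above it in all 3 CAF-200 samples.

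**Figure D5:**
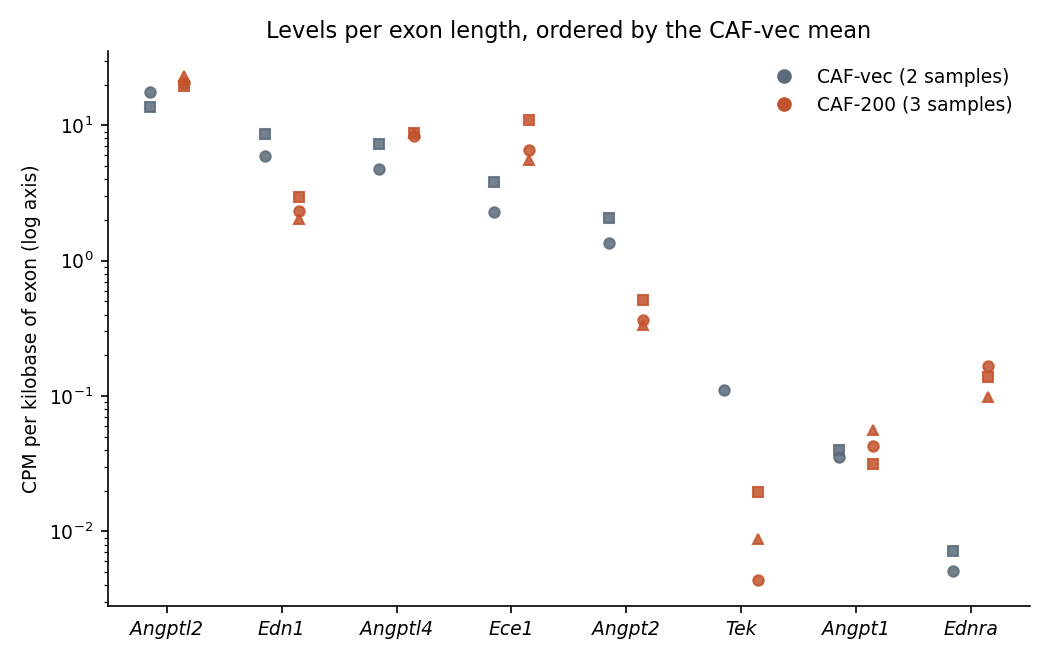
Points are CPM per kilobase of annotated exon in each sample, on a log axis, for 8 of the genes. *Ednrb*, at 0 in every sample, is left out, as is *Tek* in CAF-vec 2, which is also at 0. *Angptl2* is highest in both groups, and *Edn1* takes a lower place in CAF-200 than in CAF-vec.

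Within a group, several of the tested genes shared the highest sample, and the share of all genes with that sample highest was not counted. CAF-vec 2 exceeded CAF-vec 1 by 1.53 times for *Angpt2*, 1.44 for *Edn1*, 1.64 for *Ece1* and 1.51 for *Angptl4*. It did so by 1.41 for *Ednra*, but between values of only 0.0279 and 0.0394 CPM. The ratio was 0.775 for *Angptl2* and its median over all genes 0.959. In CAF-200, sample 2 was highest for *Angpt2*, *Edn1*, *Ece1* and *Angptl4*. The highest CAF-200 sample exceeded the lowest by 1.99 times for *Ece1*, 1.70 for *Ednra*, 1.54 for *Angpt2*, 1.46 for *Edn1*, 1.19 for *Angptl2* and 1.06 for *Angptl4*, against a median of 1.11 over all genes.

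*Angpt2* and *Edn1* had like profiles. By Euclidean distance between centred log2(CPM + 0.5) values over the 5 samples, the nearest genes to *Angpt2* were *Mrgprf* (0.235), *Cldn19* (0.294) and *Edn1* itself (0.298), where the median distance to all genes was 1.94. Nearest to *Edn1* were *Mrgprf* (0.161), *Tle2* (0.196) and *Adamts1* (0.239), with a median of 1.66. Nearest to *Ednra* were *Slfn2* (0.0971), *Armh4* (0.116) and *Atf7ip2* (0.167), with a median of 1.49. Like *Ednra*, *Slfn2* (0 CPM in both CAF-vec samples) and *Armh4* (0.0662 and 0.119 CPM there) passed the filter only through CAF-200. Their CAF-vec values lay below the 0.5 CPM added before the logarithm, so their nearness to *Ednra* is no support for its rise. These distances rest on 5 samples in 2 groups, and the group difference enters each of them.

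Among 15 other genes of the angiopoietin pathway, 8 were tested, and 1 had an adjusted *p* under 0.01 by limma and none passed both thresholds. That gene, *Svep1*, an extracellular matrix protein named after its value was seen, measured 145.7 and 138.3 CPM in CAF-vec and 75.7, 80.6 and 67.2 CPM in CAF-200. Its log2 fold-change was −0.93 (adjusted *p* = 0.00461). The median log2 fold-change of the 8 was −0.30, against −0.09 over all genes tested, and *Tie1*, the partner receptor of TIE2, was at 0 in every sample. Among 9 genes around lipoprotein lipase and the PPAR receptors, 7 were tested and 2 had an adjusted *p* under 0.01, both lower, with a median of −0.27. Over all genes tested, 5.57% were lower at this threshold. These, also named after their values were seen, were *Lpl* (log2 fold-change −0.81, adjusted *p* = 0.00765), the lipase that ANGPTL4 inhibits, and *Ppard* (−0.54, adjusted *p* = 0.00938), a nuclear receptor known to induce *Angptl4*.

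*Lpl* measured 149.2 and 141.9 CPM in CAF-vec and 85.9, 89.8 and 72.9 CPM in CAF-200, in groups that did not overlap. *Gpihbp1*, which carries the lipase across capillary endothelium, was at 0 in every sample. Of 17 other endothelin pathway genes (other ligands, peptidases, G-protein subunits, phospholipases, arrestins and a receptor kinase), 12 were tested and none had an adjusted *p* under 0.01 by limma, with 4 at an unadjusted *p* under 0.05 (all genes, 44.9%). Their median log2 fold-change was −0.12, within a range of −0.65 to 0.28. The other endothelin genes, *Edn2* and *Edn3*, were at 0 in all 5 samples, which left *Edn1* as the only endothelin gene with a value above 0.

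Endothelial cells are a known source of *Edn1*, *Angpt2* and *Tek*, and their markers were low in both groups. The 10 endothelial markers had summed levels of 2.32 to 2.85 CPM (CAF-vec) and 1.62 to 2.55 CPM (CAF-200), with *Emcn*, *Cldn5* and *Tie1* at 0 and *Pecam1* at no more than 0.288 CPM. Only 2 of the 10 were tested. *Kdr*, which encodes a VEGF receptor, was called lower (log2 fold-change −1.26, adjusted *p* = 0.00807), and *Egfl7*, which passed the filter only through CAF-200, measured 0 and 0.330 CPM in CAF-vec and 1.47, 1.19 and 0.718 CPM in CAF-200. The untested *Cdh5* and *Esam* also had higher values in CAF-200, all below 0.2 CPM. The 7 pericyte markers summed to 11.1 to 14.6 CPM and 10.0 to 10.8 CPM, none of them called, with 3 at 0. The 7 leukocyte markers summed to 8.38 to 9.41 CPM and 12.2 to 12.8 CPM, with *Cd3e* and *Adgre1* at 0, *Ptprc* at no more than 0.0404 CPM and *Lyz2* called higher (log2 fold-change 1.91, adjusted *p* = 0.00395). The macrophage markers *Cd68* (2.25 to 5.01 CPM) and *Csf1r* (2.29 to 4.98 CPM) were present in every sample, with overlapping groups. The fibroblast markers had summed levels of 7457 to 14150 CPM (CAF-vec) and 6609 to 7302 CPM (CAF-200), and 3 of them, *Dcn* (2.75), *Lum* (2.82) and *Thy1* (1.46), were called higher (log2 fold-changes). The abundant *Col1a1* (−0.91, adjusted *p* = 0.0982) and *Col1a2* (−0.75, adjusted *p* = 0.112) were among the 5 of 9 tested fibroblast markers with a log2 fold-change below 0. The part of the endothelial, pericyte, leukocyte and fibroblast markers in the changes of *Edn1*, *Angpt2* and *Ednra* was not tested.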

How the data were processed

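The authors deposited 1 table of normalized expression in CPM, 1 column per sample. All 5 columns were used and 0 left out. The submitters' processing notes name FastQC, cutadapt, Trimmomatic, STAR, RSEM and edgeR and the builds GRCm38 and mm10, with no versions or roles. The low CPM values were not whole multiples of 1 read (36 to 72.8% of low values within 0.1 of a multiple), so no count test was run, and sequencing depth is unknown. The study's methods describe triplicates, a hygromycin vector and another RNA kit than the labels, and the labels were followed.

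The groups were compared by limma 3.58.1 (R 4.3.3, lmFit, eBayes with a variance trend), fitted to log2(CPM + 0.5) of every gene that reached 0.5 CPM in 2 or more samples. Benjamini-Hochberg adjustment ran over all of these genes. The script was tested on simulated data. Identifiers were matched to GENCODE M21 for 21795 of 21835 rows. For levels per kilobase, CPM was divided by the merged length of a gene's annotated exons, which is longer than a single transcript where isoforms differ. Python 3.11.15 used pandas 2.3.3, numpy 2.4.6 and matplotlib 3.10.9.

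The genes and lists were chosen with earlier results of these data known. Named were the 9 genes, list genes past both thresholds, *Zeb1* and *Zeb2*, and the 3 nearest profiles of each called gene. Other genes in the text, such as *Svep1*, *Lpl*, *Ppard*, the overlapping genes and uncalled markers, lie outside this rule and were named after their values were seen. Alternatives were pseudocounts of 1 and 0.1 CPM, no filter, a minimum of 1 CPM in all samples, quantile normalization, median centring, no variance trend, an adjusted *p* of 0.05, each sample left out, and the replicate number as a block.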

Additional observations from a re-analysis of the deposited data

How the results depend on the processing

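No log2 fold-change of the 6 tested genes changed direction under any alternative run. The 2 genes called lower became 0 without the filter and 0 to 2 with 1 sample left out. The 1 called higher became 0 with a pseudocount of 1 CPM, with at least 1 CPM required in every sample (which leaves *Ednra* untested) and under quantile normalization, 2 at an adjusted *p* of 0.05, and 0 to 2 with 1 sample left out. The 3 genes at an adjusted *p* under 0.01 became 1 without the filter, which is *Ednra*, and 0 to 5 with 1 sample left out, the 5 without CAF-vec 2. Leaving aside *Ednra*, which passed the filter only through CAF-200, the count was 2, 0 without the filter and 0 to 4 with 1 sample left out. Without any 1 CAF-200 sample, 3 or 4 of those 5 tested genes had an unadjusted *p* under 0.05 by limma, as had 31.5 to 33.5% of all genes. The count of angiopoietin pathway genes (1) became 2 with median centring, 3 at an adjusted *p* of 0.05 and 0 to 3 with 1 sample left out. That of lipase and PPAR genes (2) became 0 without the filter, 1 with quantile normalization, median centring or no variance trend, and 0 to 4 with 1 sample left out. That of endothelin pathway genes (0) became 2 at an adjusted *p* of 0.05 and 0 to 5 with 1 sample left out. The highest of these counts come without a CAF-vec sample, where 50.6% (without CAF-vec 2) or 29.9% (without CAF-vec 1) of all genes had an adjusted *p* under 0.01. Where 1 CAF-vec sample was left out, the lone one is assumed to vary like the CAF-200 samples. The causes were not tested.

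Adjusted *p* values over all alternatives were 0.000305 to 0.0407 for *Angpt2*, 0.000289 to 0.044 for *Edn1*, 0.00565 to 0.0509 for *Ednra*, 0.00228 to 0.0886 for *Ece1*, 0.00157 to 0.206 for *Angptl2* and 7.56e-05 to 0.189 for *Angptl4*. Over the whole table, 49.7% of calls were lower and 38.4% with median centring, which moved the median log2 fold-change from −0.09 to 0.0027.

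With the replicate block, 1 of the 9 genes was called lower (*Angpt2*, adjusted *p* = 0.00985, while *Edn1* had 0.0113) and 1 higher, which was *Ece1* (log2 fold-change 1.50, adjusted *p* = 0.00783) and not *Ednra* (adjusted *p* = 0.0258). The block left 0 angiopoietin pathway and 0 lipase and PPAR genes, and 70 lower and 101 higher calls over all genes. With no CAF-vec sample of its number, CAF-200 3 adds nothing to the blocked fold-change. Deviations of same-numbered samples correlated at 0.249 and 0.134 over genes, and those of CAF-vec 2 with CAF-200 3, of another number, at 0.119. With 2 CAF-vec samples, the correlations of CAF-vec 1 and CAF-vec 2 with any CAF-200 sample are equal and opposite. The labels do not say that a number marks a shared culture or day, so the samples share only a number.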
